A study of Homo sapiens with 16 samples.

Results

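The anti-apoptotic BCL2 family is taken here as 5 genes: BCL2, BCL2L1 (which encodes BCL-XL and its short splice form BCL-XS), MCL1, BCL2A1 (BFL-1) and BCL2L2 (BCL-W). They were found as the probe sets whose platform annotation names exactly 1 gene among these symbols, and all 5 genes were present, with 20 of the 44988 probe sets that name 1 gene. BCL2 and MCL1 had 6 probe sets each, BCL2L1 and BCL2L2 had 3 each and BCL2A1 had 2. For each of the 18132 genes measured, the probe set with the highest mean over the 16 arrays stood for the gene, and all other probe sets of the family are shown beside it because they did not always move alike.

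Nalm6, the cell line on all arrays, was grown from a human acute leukaemia of B-lymphocyte precursors. There were 4 groups with 4 arrays in each: control cells left untreated, control cells given prednisolone, cells labelled as carrying active, overexpressed CASP1 left untreated, and the same cells given prednisolone. Prednisolone is a synthetic glucocorticoid and was given for 24 hours per the labels' protocol, while the sample labels spell the treatment "predisone". The series concerns CASP1, a caspase that can cut the receptor for glucocorticoids, and the loss of response to these drugs in leukaemia. The dose, the vector and promoter behind CASP1, and whether each line was a clone or a pool are not known here, and the labels do not say that arrays of a group came from separate cultures.

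Proteins of this family sit on the outer membrane of the mitochondrion and hold cell death in check. They bind the killer members BAX and BAK1, and they bind the BH3-only proteins, such as BIM (the product of BCL2L11), BMF and PUMA, which are made or freed when a cell is stressed. When BH3-only proteins outnumber the guardians, BAX and BAK1 open the membrane, cytochrome c escapes and caspases are activated. In lymphoid leukaemia this route is the main way in which glucocorticoids kill, and BCL2 itself is the target of the drug venetoclax.

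Facts of the arrays as a whole bear on what follows. The CASP1 signal was lower on the arrays labelled CASP1, at 5.69 ± 0.25 (SD, n = 4) on the log2 scale against 7.75 ± 0.15 in untreated cells, so directions between the lines follow labels that go against this signal. Where the probes lie on the introduced construct is not known here. NR3C1, which encodes the glucocorticoid receptor, did not differ measurably between the untreated lines (difference -0.03, limma adjusted p = 0.92) and was lower in treated cells labelled CASP1 than in treated control cells (-0.42, adjusted p = 0.0059). Array medians lay between 4.85 and 4.93. All 11 measured markers of B-cell precursors lay above the median gene, and all 16 measured markers of T cells, myeloid cells, erythroid cells and stroma lay below it. Replicate 1 of every group correlated less with its group than the other 3 arrays did, so values without the 4 arrays of replicate 1 are added where they change a call of a probe set or gene named here.

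BCL2, the founding member, had a mean over the 16 arrays above that of 73.9% of probe sets with 1 gene. Its highest signals were on the untreated control arrays. Its signal there was 8.99, 8.86, 8.74 and 8.77 in replicates 1 to 4. With prednisolone the control arrays read 6.51, 6.39, 6.28 and 6.35. The 2 groups were far apart, with a difference of -2.46 (SE 0.21), a 5.49-fold lower signal (limma adjusted p = 2.3e-07; exact two-sided permutation p = 0.029, the smallest that 4 against 4 arrays allow). This was the largest fall of all 18132 genes in control cells. In bulk RNA, fewer cells with the transcript and less transcript per cell cannot be told apart.

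On the arrays labelled CASP1, BCL2 was already lower without prednisolone than in untreated control cells. The untreated arrays read 7.53, 6.75, 6.70 and 6.92, all below every untreated control array. The line difference was -1.87 (SE 0.21), or 3.64-fold lower (adjusted p = 1.3e-05), and 12 genes had a larger fall in that comparison. The treated arrays read 6.99, 5.86, 5.97 and 5.79, where replicate 1 lay among the untreated arrays and the other 3 lay below all of them. Over the 4 arrays the response was -0.82 (SE 0.21, 1.77-fold, adjusted p = 0.025), and the groups overlapped (exact permutation p = 0.11).

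That second call was fragile. With the mean of all 6 probe sets it was -0.25 (adjusted p = 0.054), and with only the groups compared in the fit the adjusted p was 0.14. It also ended without untreated replicate 1 (-0.64, adjusted p = 0.084) or 4 (-0.84, adjusted p = 0.056), and without treated replicate 2 (-0.73, adjusted p = 0.075), 3 (-0.76, adjusted p = 0.075) or 4 (-0.70, adjusted p = 0.088). Without treated replicate 1, the array that stood apart, the response was -1.10 (adjusted p = 0.00011), and without the 4 arrays of replicate 1 it was -0.92 (adjusted p = 3e-06).

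The order of the BCL2 means was untreated control cells (8.84 ± 0.11, SD, n = 4), untreated cells labelled CASP1 (6.97 ± 0.38), treated control cells (6.38 ± 0.10) and treated cells labelled CASP1 (6.15 ± 0.56). The last 2 did not differ beyond their spread, with a line difference under prednisolone of -0.23 (95% interval -0.68 to 0.22, adjusted p = 0.53). Without treated replicate 1 of the cells labelled CASP1, however, it was -0.51 (adjusted p = 0.026), and without the 4 arrays of replicate 1 it was -0.47 (adjusted p = 0.00069). Untreated cells labelled CASP1 and treated control cells were not compared in the design, and their arrays did not overlap. The fall with prednisolone was smaller in cells labelled CASP1, by an interaction of 1.63 (SE 0.30, 95% interval 0.997 to 2.27, adjusted p = 0.012), and only 2 genes had a higher value. It kept its call without any 1 of the 16 arrays (1.35 to 1.82, adjusted p up to 0.034). The starting level differed as well, and whether the smaller fall only mirrors the lower start was not tested.

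**Figure D1:**
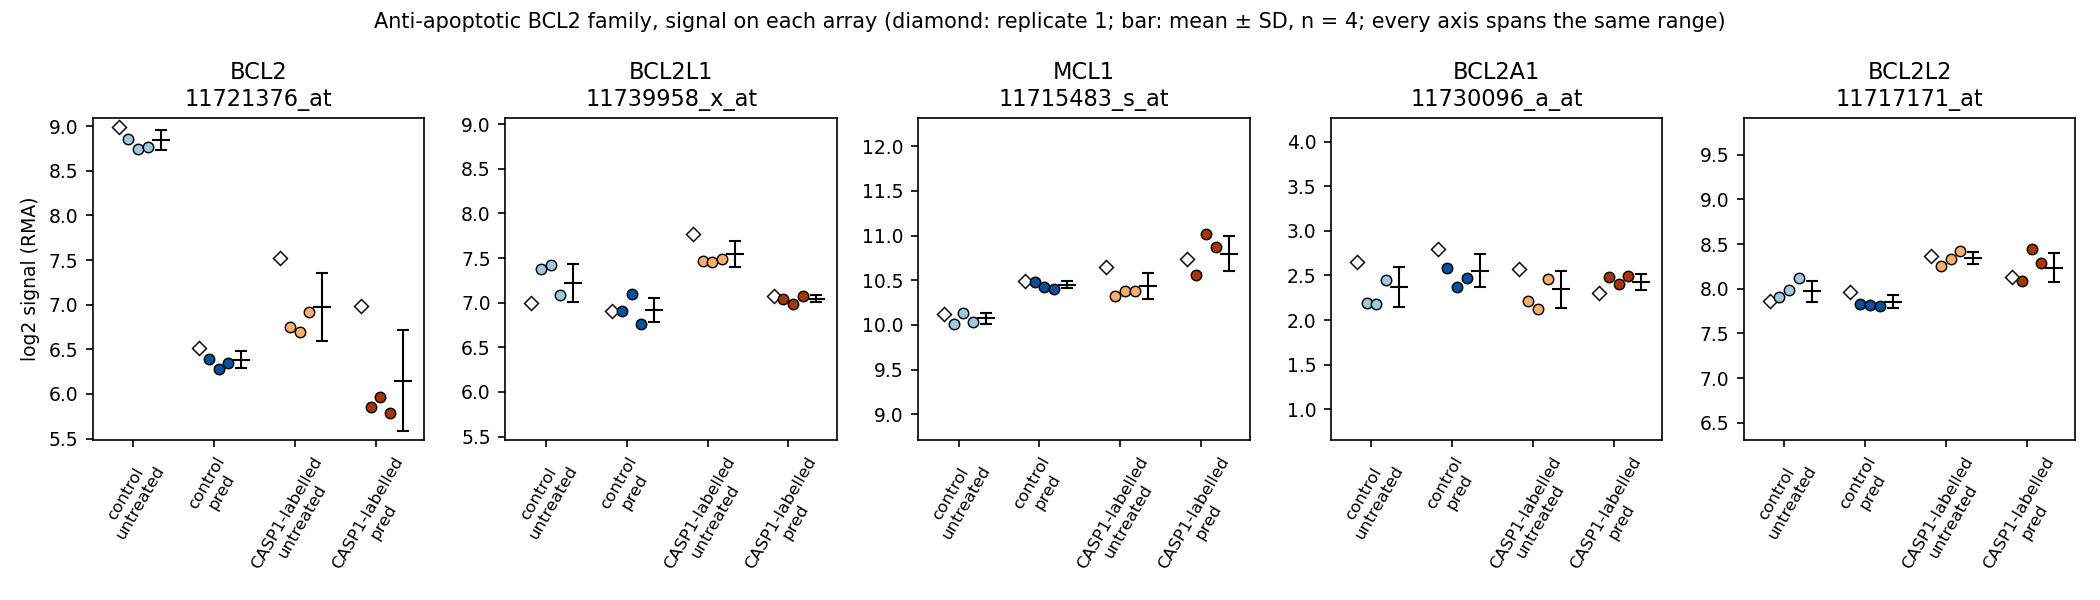
Log2 signal of the probe set that stands for each of the 5 genes (vertical axes of equal span) on every array of the 4 groups, with replicate 1 as an open diamond and the bar showing mean ± SD over 4 arrays. BCL2 fell from 8.84 to 6.38 in control cells, MCL1 rose by 0.37 in the same cells, and the BCL2A1 signal stayed below 2.8 on every array.

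All 6 BCL2 probe sets lay below 0 for prednisolone in control cells and for the untreated line difference, and above 0 in the interaction. In the other comparisons 3 lay above 0 and 3 below. Probe sets 11721376_at and 11721377_x_at, annotated to NM_000633.2, the transcript of the long alpha form, moved together, with responses of -2.46 and -2.41 in control cells. Their signals correlated at r = 1 over the 16 arrays, and probe sets of a gene can share probes, so the second is no independent check. Probe set 11721375_a_at, annotated to BC027258.1, read 5.35, 5.62, 5.63 and 5.58 on the untreated control arrays. It read between 4.12 and 4.39 on all 12 other arrays, so its high group stood alone.

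In control cells 11721375_a_at fell by 1.33 (SE 0.092, adjusted p = 1.6e-08 over all probe sets), and in cells labelled CASP1 its difference was 0.01 (SE 0.092, adjusted p = 0.98). Its interaction of 1.34 (SE 0.13, adjusted p = 4.4e-05) was called without any 1 of the 16 arrays. Untreated cells labelled CASP1 averaged 4.27 on this probe set, below the array medians of 4.85 to 4.93. Whether a further fall could show at that level was not tested. Probe set 11721374_a_at had a response of -0.70 (adjusted p = 0.0017) in control cells and -0.05 (adjusted p = 0.92) in cells labelled CASP1, but its interaction of 0.65 was not called (adjusted p = 0.19).

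The probe sets annotated to NM_000657.2, the transcript of the shorter beta form of BCL2, had the smallest differences of the 6 in control cells and between the untreated lines. Their means over the 16 arrays lay above those of only 49.2% and 48.3% of probe sets with 1 gene. For the probe sets annotated to NM_000633.2 it was 73.9% and 72.5%. Probe sets 11721375_a_at and 11721374_a_at ranked lower still, at 45.5% and 34.1%, yet fell more in control cells. Whether low signal limited the differences of the NM_000657.2 probe sets was not tested. Probe set 11738351_x_at fell by 0.39 (adjusted p = 0.028) in control cells, a call that ended without any 1 of 5 arrays (untreated replicates 2, 3 and 4 and treated replicates 1 and 2, adjusted p from 0.061 to 0.10). Probe set 11738350_a_at was at -0.32 (adjusted p = 0.092), and at -0.42 (adjusted p = 0.02) without the 4 arrays of replicate 1. With prednisolone in the other line they were at 0.06 and 0.08, with adjusted p of 0.87 and 0.81. Their lower signal in untreated cells labelled CASP1 (-0.43 and -0.45, adjusted p = 0.017 for each) was lost without any 1 of 3 arrays. For 11738351_x_at these were control replicate 3 and CASP1-labelled replicates 1 and 4 (adjusted p from 0.06 to 0.065), and for 11738350_a_at control replicates 3 and 4 and CASP1-labelled replicate 1 (adjusted p from 0.053 to 0.07).

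Over all 6, 5 fell in control cells, 2 fell in cells labelled CASP1 and all 6 were lower in untreated cells labelled CASP1 than in untreated control cells. Of all probe sets naming 1 gene, 7.2% were called lower in the first of these comparisons, 2.96% in the second and 7.06% in the third. The fall of 11721377_x_at in cells labelled CASP1 (-0.78, adjusted p = 0.021) was lost without untreated replicate 1 or treated replicate 2, 3 or 4 (adjusted p from 0.063 to 0.071). In the interaction 3 of the 6 were called higher, against 0.262% of probe sets. Between the treated lines none of the 6 was called, with differences from -0.23 to 0.06, where 8.15% of probe sets were called lower. Without the 4 arrays of replicate 1, though, 11721376_at and 11721377_x_at were called lower there, at -0.47 and -0.46 (adjusted p = 0.0011 for each).

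MCL1, a short-lived guardian that many lymphoid cells need to survive, moved the other way. The untreated control arrays read 10.12, 10.01, 10.14 and 10.03, and the treated control arrays 10.50, 10.48, 10.43 and 10.40. All treated arrays lay above all untreated ones, with a rise of 0.37 (SE 0.097), 1.3-fold (adjusted p = 0.012), which was called without any 1 of the 8 arrays (adjusted p up to 0.04).

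In cells labelled CASP1 the untreated arrays read 10.65, 10.33, 10.38 and 10.38 and the treated ones 10.74, 10.56, 11.02 and 10.87. Replicate 1 was the highest untreated array and lay above treated replicate 2, so the groups overlapped. The rise was 0.36 (SE 0.097, adjusted p = 0.031). It lost its call without untreated replicate 2, 3 or 4 (0.33, 0.34 and 0.34, adjusted p = 0.099, 0.089 and 0.09) or without treated replicate 3 or 4 (0.29 and 0.34, adjusted p = 0.11 and 0.087). Without the 4 arrays of replicate 1 it was 0.45 (adjusted p = 0.0075).

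The line difference of MCL1 was of the same size as its response. Cells labelled CASP1 were higher by 0.36 without prednisolone (adjusted p = 0.018) and by 0.35 with it (adjusted p = 0.02), and the arrays did not overlap in either case. The first call ended without control replicate 2 (0.34, adjusted p = 0.054) or 4 (0.34, adjusted p = 0.051) or CASP1-labelled replicate 1 (0.29, adjusted p = 0.066). The second ended without control replicate 4 (0.33, adjusted p = 0.053) or CASP1-labelled replicate 3 (0.27, adjusted p = 0.069) or 4 (0.32, adjusted p = 0.053). The interaction was -0.01 (95% interval -0.30 to 0.28, adjusted p = 0.99). The order of the means was untreated control cells (10.08 ± 0.061), untreated cells labelled CASP1 (10.44 ± 0.15), treated control cells (10.45 ± 0.043) and treated cells labelled CASP1 (10.80 ± 0.19), and the middle groups lay within each other's spread.

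The 6 MCL1 probe sets fell into different patterns. Probe set 11715484_a_at rose most with prednisolone, by 0.88 (SE 0.13, adjusted p = 7.7e-05) in control cells and by 0.71 (SE 0.13, adjusted p = 0.0018) in cells labelled CASP1. Its untreated arrays lay between 5.73 and 6.25 in both lines and its treated arrays between 6.64 and 7.04, with no overlap. Probe set 11715487_a_at rose by 0.59 (adjusted p = 0.0018) and 0.67 (adjusted p = 0.0017). Both kept these calls without any 1 array, and in neither did the lines differ measurably (differences from -0.10 to 0.11, adjusted p of 0.70 or more).

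Probe sets 11715482_a_at and 11715485_a_at differed between the treated lines, by 0.44 (adjusted p = 0.025) and 0.34 (adjusted p = 0.019). The first call ended without control replicate 2 or 3 or CASP1-labelled replicate 1 or 3 (adjusted p from 0.06 to 0.084), and the second without control replicate 1 or 3 or CASP1-labelled replicate 2 (adjusted p from 0.053 to 0.069). Without the 4 arrays of replicate 1 the second was 0.28 (adjusted p = 0.069). Their responses in control cells, 0.17 and 0.08, were not called (adjusted p = 0.50 and 0.74), nor were those in cells labelled CASP1, 0.39 and 0.26 (adjusted p = 0.086 and 0.14). That of 11715482_a_at in cells labelled CASP1 was called without untreated replicate 1 (0.52, adjusted p = 0.01), treated replicate 2 (0.50, adjusted p = 0.022). Leaving out all arrays numbered 1 gave 0.48 (adjusted p = 0.013). Probe set 11715486_x_at was called in no comparison, with values from -0.08 to 0.34.

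Over the 6 probe sets, 3 were called higher in each line and none lower. Of all probe sets with 1 gene, 5.33% were called higher in the control line and 2.45% in the other. With or without a call, 5 of the 6 lay above 0 in control cells. In cells labelled CASP1 all 6 did, with differences from 0.26 to 0.71. Of the 3 called higher, 2 had no called line difference and 11715483_s_at had one. Higher signal in cells labelled CASP1 was called for 3 probe sets under prednisolone and for 1 without it (backgrounds of 6.53% and 5% called higher). The 1 without it, 11715483_s_at, was at adjusted p = 0.051 over all probe sets (0.042 over all genes) without the 4 arrays of replicate 1. Averaged over its 6 probe sets, MCL1 rose by 0.35 in control cells (adjusted p = 0.002) and by 0.45 in cells labelled CASP1 (adjusted p = 0.00046), and its untreated line difference was 0.11 (adjusted p = 0.38).

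**Figure D2:**
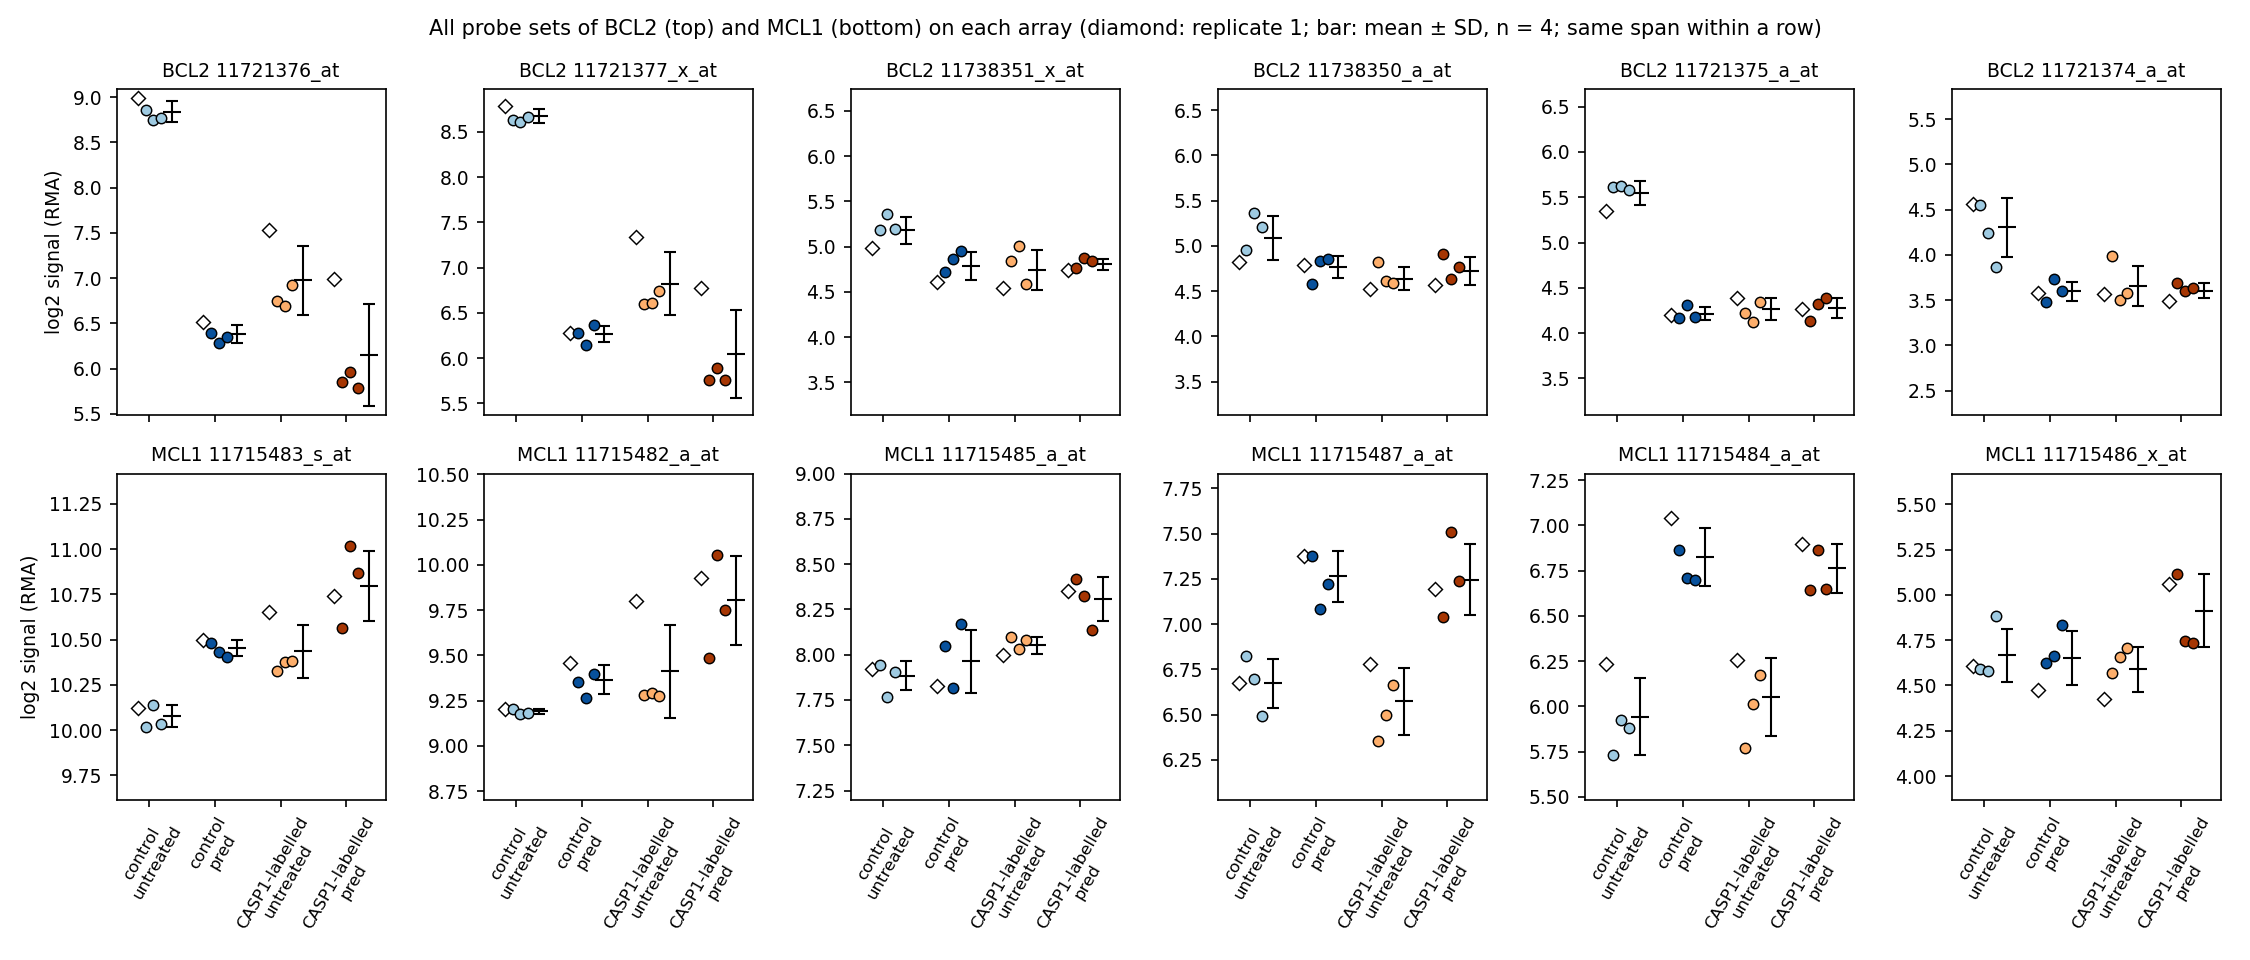
Log2 signal on each array for the 6 probe sets of BCL2 (top row) and of MCL1 (bottom row), in order of brightness, with replicate 1 as an open diamond and the bar showing mean ± SD over 4 arrays. All 6 BCL2 means were highest in untreated control cells. Of the MCL1 probe sets, 3 were called higher with prednisolone in both lines, such as 11715484_a_at, and 3 were not called.

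By the means of the probe sets that stand for them, BCL2 and MCL1 ordered the 4 groups in reverse. The middle groups of MCL1 did not differ beyond their spread, however. The other MCL1 probe sets did not give this MCL1 order, and most other BCL2 probe sets did not give this BCL2 order. Over the 16 arrays the signals that stand for BCL2 and MCL1 correlated at r = -0.78. After each group's mean was taken off the correlation was 0.24. The arrays share 4 groups, so the first value describes group means and is no independent relation between the genes.

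**Figure D3:**
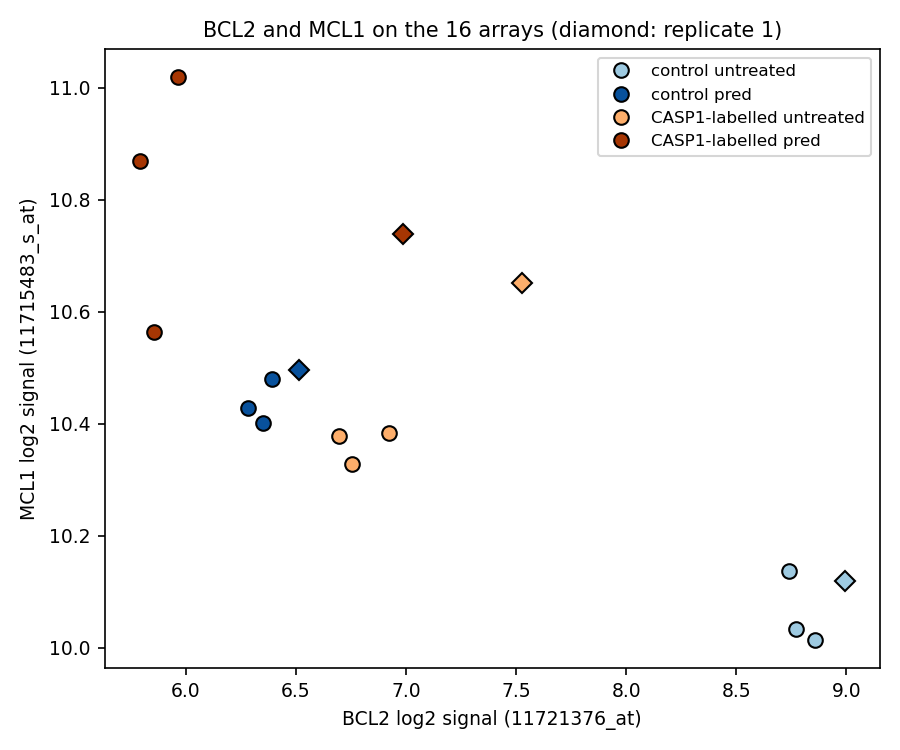
BCL2 log2 signal (horizontal) against MCL1 log2 signal (vertical) on the 16 arrays, each from the probe set that stands for the gene. Arrays are coloured by group, with replicate 1 as diamonds. Untreated control arrays lie at the lower right (BCL2 8.84, MCL1 10.08 on average) and treated arrays labelled CASP1 at the upper left (6.15 and 10.80).

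BCL2L1, whose main product is BCL-XL, fell with prednisolone in cells labelled CASP1. The untreated arrays of that line read 7.77, 7.47, 7.45 and 7.49 and the treated arrays 7.07, 7.05, 6.99 and 7.07. The groups did not overlap, and the change was -0.50 (SE 0.11, 1.41-fold lower, adjusted p = 0.0069), called without any 1 of the 8 arrays (adjusted p up to 0.025). With the mean of its 3 probe sets the call ended, at -0.21 (adjusted p = 0.29).

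In control cells BCL2L1 read 7.0, 7.38, 7.42 and 7.09 untreated and 6.91, 6.90, 7.10 and 6.77 treated. The groups overlapped, and the difference of -0.30 (95% interval -0.52 to -0.08) did not pass (adjusted p = 0.073). It passed without untreated replicate 1 (-0.37, adjusted p = 0.025), without treated replicate 3 (-0.36, adjusted p = 0.048) and without the 4 arrays of replicate 1 (-0.37, adjusted p = 0.014). The interaction was -0.20 (95% interval -0.52 to 0.12, adjusted p = 0.73), so a difference between the lines was not shown.

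BCL2L1 was also called higher in untreated cells labelled CASP1, by 0.33 (SE 0.11, adjusted p = 0.049 over all genes, and 0.06 over all probe sets, which misses the threshold). This call ended without any 1 of 6 of the 8 arrays (untreated control replicates 1 and 4 and all 4 arrays labelled CASP1, 0.25 to 0.36, adjusted p from 0.062 to 0.16). Without the 4 arrays of replicate 1 it was 0.18 (adjusted p = 0.26). The second probe set by brightness, 11759514_at, was on the other side of 0 at -0.29 (adjusted p = 0.20), and without the 4 arrays of replicate 1 it was called lower at -0.46 (adjusted p = 0.0034).

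The probe set that stood for BCL2L1, 11739958_x_at, is annotated to NM_001191.2, the transcript of the short form BCL-XS, which unlike BCL-XL promotes cell death. Whether its probes also detect the BCL-XL transcript is not known here. The other probe sets were not called for prednisolone in either line, with differences from -0.22 to 0.10. Probe set 11739957_a_at was called higher in untreated cells labelled CASP1 (0.48, adjusted p = 0.048), a call that ended without any 1 of 6 arrays (control replicates 1, 3 and 4 and CASP1-labelled replicates 2, 3 and 4, adjusted p from 0.055 to 0.15) and without the 4 arrays of replicate 1 (0.38, adjusted p = 0.053). Signals of 11739958_x_at and 11739957_a_at correlated at r = 0.6 over the 16 arrays. Those of 11759514_at correlated with the other 2 at r = 0.018 and -0.082, so this probe set did not share their reading.

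BCL2L2, the guardian BCL-W, differed between the lines and not measurably with prednisolone. The untreated control arrays read 7.86, 7.91, 7.98 and 8.12 and the untreated arrays labelled CASP1 8.37, 8.25, 8.33 and 8.43, without overlap. The difference was 0.38 (SE 0.09, 1.3-fold, adjusted p = 0.0085). With prednisolone the control arrays read 7.96, 7.83, 7.81 and 7.80 and those labelled CASP1 8.13, 8.09, 8.44 and 8.29, again without overlap, with a difference of 0.38 (adjusted p = 0.0068).

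Both BCL2L2 calls held without any 1 array (adjusted p up to 0.03). Its responses were -0.12 (95% interval -0.31 to 0.07) in control cells and -0.11 (-0.30 to 0.08) in cells labelled CASP1, with adjusted p of 0.53 and 0.61. The order of the means was treated control cells (7.85 ± 0.074), untreated control cells (7.97 ± 0.11), treated cells labelled CASP1 (8.24 ± 0.16) and untreated cells labelled CASP1 (8.34 ± 0.072), and neighbours in this order overlapped. The line difference rested on 11717171_at, since the other probe sets, 11751290_a_at and 11717172_a_at, lay at 3.50 and 3.48 on average and were at -0.13 and -0.19 (adjusted p = 0.78 and 0.52). With the mean of the 3 probe sets both calls ended, at 0.02 (adjusted p = 0.95) and 0.13 (adjusted p = 0.45). Probe sets that also name PABPN1 or its read-through with BCL2L2 name several genes and were not used.

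BCL2A1, a target of NF-kappaB in activated lymphocytes and myeloid cells, lay near the lowest signals of the arrays. Its 2 probe sets had means of 2.42 and 2.35 over the 16 arrays, and only 4.88% and 3.2% of probe sets with 1 gene had a lower mean. On the first, the group medians ran from 2.32 to 2.53, and every pair of groups compared overlapped. It was called in no comparison (differences from -0.13 to 0.19, adjusted p from 0.43 to 0.95).

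**Figure D4:**
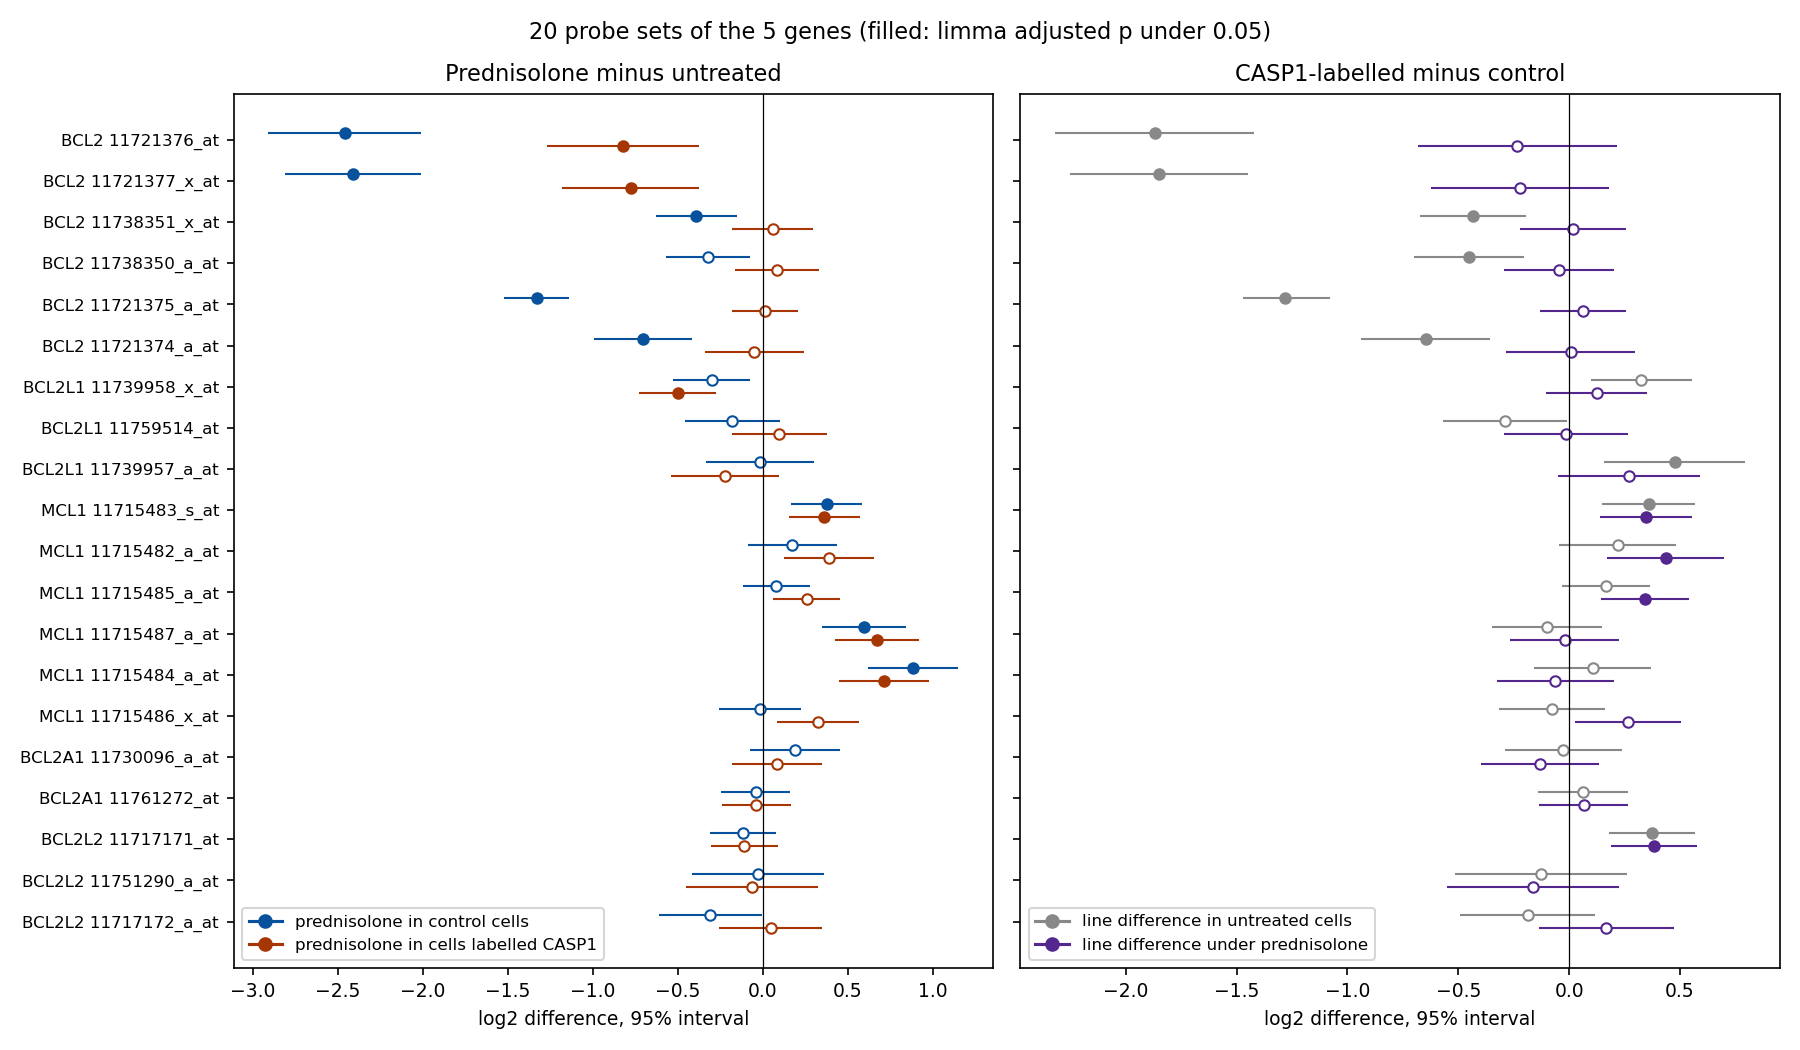
Log2 differences with 95% intervals for all 20 probe sets, for prednisolone minus untreated in each line (left) and for cells labelled CASP1 minus control cells without and with prednisolone (right); filled points had limma adjusted p under 0.05. The BCL2 probe sets spread from -2.46 to -0.32 in control cells and MCL1 from -0.02 to 0.88, while BCL2A1 intervals all span 0.

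Of the 5 genes, 2 passed for prednisolone in control cells (1 higher, 1 lower), where 14.2% of all 18132 genes did, 5.73% higher and 8.43% lower. In cells labelled CASP1 it was 3 (1 higher, 2 lower) against 6.34% of all genes, 2.99% higher and 3.35% lower. Between the untreated lines 4 passed (3 higher, 1 lower) against 14.1%, 5.87% higher and 8.2% lower. Between the treated lines it was 2, both higher, against 16.4%, 7.88% higher and 8.52% lower. In the interaction it was BCL2 alone, higher, against 0.888% of all genes, 0.524% higher. The groups did not overlap for 2, 1, 4 and 2 of the 5 genes in the first 4 of these comparisons, and for 20.9%, 11.9%, 21.7% and 19.7% of all genes. Median differences over the 5 genes were -0.12, -0.11, 0.33, 0.13 and -0.01, beside medians of all genes between -0.015 and 0.045. With 5 genes these counts describe the family and are no test of it. The prednisolone comparison in control cells and the untreated line comparison share the untreated control arrays, and each other pair of these comparisons that has a group in common shares its arrays too.

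The opponents of these proteins moved as well. Of the 8 BH3-only genes, 5 were called in control cells, 3 higher and 2 lower (14.2% of all genes called). In cells labelled CASP1 it was 5, 2 higher and 3 lower (6.34% of all genes called). Their median difference was -0.21 and -0.049, beside -0.015 and 0.018 for all genes. Without the 4 arrays of replicate 1 the counts were 3 higher and 4 lower in control cells and 3 and 3 in cells labelled CASP1, with 21.9% and 11.9% of all genes called.

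BMF, which reports on detachment and cytoskeletal stress, rose from 4.61 to 6.65 in control cells (2.04, SE 0.12, adjusted p = 2.8e-09). In cells labelled CASP1 it rose from 5.40 to 6.69 (1.29, SE 0.12, adjusted p = 2.1e-06). The untreated line difference was 0.79 (adjusted p = 0.00028). BCL2L11, which encodes BIM, the BH3-only protein most tied to glucocorticoid killing, rose from 7.30 to 8.51 in control cells (1.21, SE 0.14, adjusted p = 7.8e-06) and from 7.19 to 7.78 in cells labelled CASP1 (0.59, SE 0.14, adjusted p = 0.016). The second rise was at adjusted p = 0.05 without untreated replicate 3. In treated cells BCL2L11 was lower by 0.73 on the log2 scale on the arrays labelled CASP1 (adjusted p = 0.0016).

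The difference between the lines in these 2 responses did not pass with all arrays, at -0.75 (SE 0.18, adjusted p = 0.055) for BMF and -0.62 (SE 0.20, adjusted p = 0.22) for BCL2L11. It passed for BMF without untreated control replicate 1 or treated CASP1-labelled replicate 3 (adjusted p = 0.033 and 0.032). Without the 4 arrays of replicate 1 it passed for both, at -0.74 (adjusted p = 0.029) and -0.48 (adjusted p = 0.034).

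The other BH3-only genes moved in both directions. PMAIP1, which encodes the MCL1 partner NOXA, rose by 0.51 in control cells (adjusted p = 0.014), a call lost without untreated replicate 2 or treated replicate 3 or 4 (adjusted p from 0.054 to 0.058). In cells labelled CASP1 it was at 0.45 (adjusted p = 0.054), with no overlap between the groups. PMAIP1 rose in both lines without the 4 arrays of replicate 1, by 0.765 (adjusted p = 2.1e-06) and 0.38 (adjusted p = 0.0022). The interaction was then -0.39 (adjusted p = 0.041) and the untreated line difference 0.48 (adjusted p = 0.00019), where all arrays gave -0.05 (adjusted p = 0.97) and 0.32 (adjusted p = 0.15).

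BID, which links death receptors to mitochondria, fell by 0.65 (adjusted p = 0.00044) in control cells and by 0.46 (adjusted p = 0.016) in cells labelled CASP1. The second BID call was lost without untreated replicate 2 or treated replicate 3 or 4 (adjusted p from 0.056 to 0.061).

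HRK, a BH3-only gene best known from neurons, fell by 0.63 (adjusted p = 0.0028) and 0.53 (adjusted p = 0.022), the second lost when untreated replicate 3 or 4 or treated replicate 1 or 4 was left out (adjusted p from 0.05 to 0.077). BIK fell in cells labelled CASP1 by 0.62 (adjusted p = 0.036), a call lost without any 1 of 6 of the 8 arrays, with only treated replicates 1 and 2 leaving it in place when left out (adjusted p from 0.058 to 0.12 otherwise). In control cells BIK was at -0.50 (adjusted p = 0.063). BIK was called there too without the 4 arrays of replicate 1 (-0.53, adjusted p = 0.0093) and was lower between the treated lines (-0.40, adjusted p = 0.043, against -0.35 and 0.18 with all arrays).

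BBC3, which encodes PUMA, was at -0.57 and -0.17 with prednisolone (adjusted p = 0.32 and 0.86). It was higher in treated cells labelled CASP1 than in treated control cells by 1.04 (SE 0.32, adjusted p = 0.032), lost without any 1 of the 4 control arrays (adjusted p from 0.057 to 0.073) or CASP1-labelled replicate 1 (0.65, adjusted p = 0.086). That difference was 0.66 (adjusted p = 2e-04) without the 4 arrays of replicate 1. BBC3 was then also called lower with prednisolone in control cells (-0.37, adjusted p = 0.011) and higher between the untreated lines (0.58, adjusted p = 0.00056). BAD was called in no comparison.

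None of the 3 effector genes, BAX, BAK1 and BOK, was called by limma in any comparison, and none had an unadjusted p under 0.05. Unadjusted intervals were wide for BAX (-0.42, 95% interval -1.19 to 0.35, in control cells) and BAK1 (-0.04, -0.60 to 0.52), so changes of moderate size could not be seen there.

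**Figure D5:**
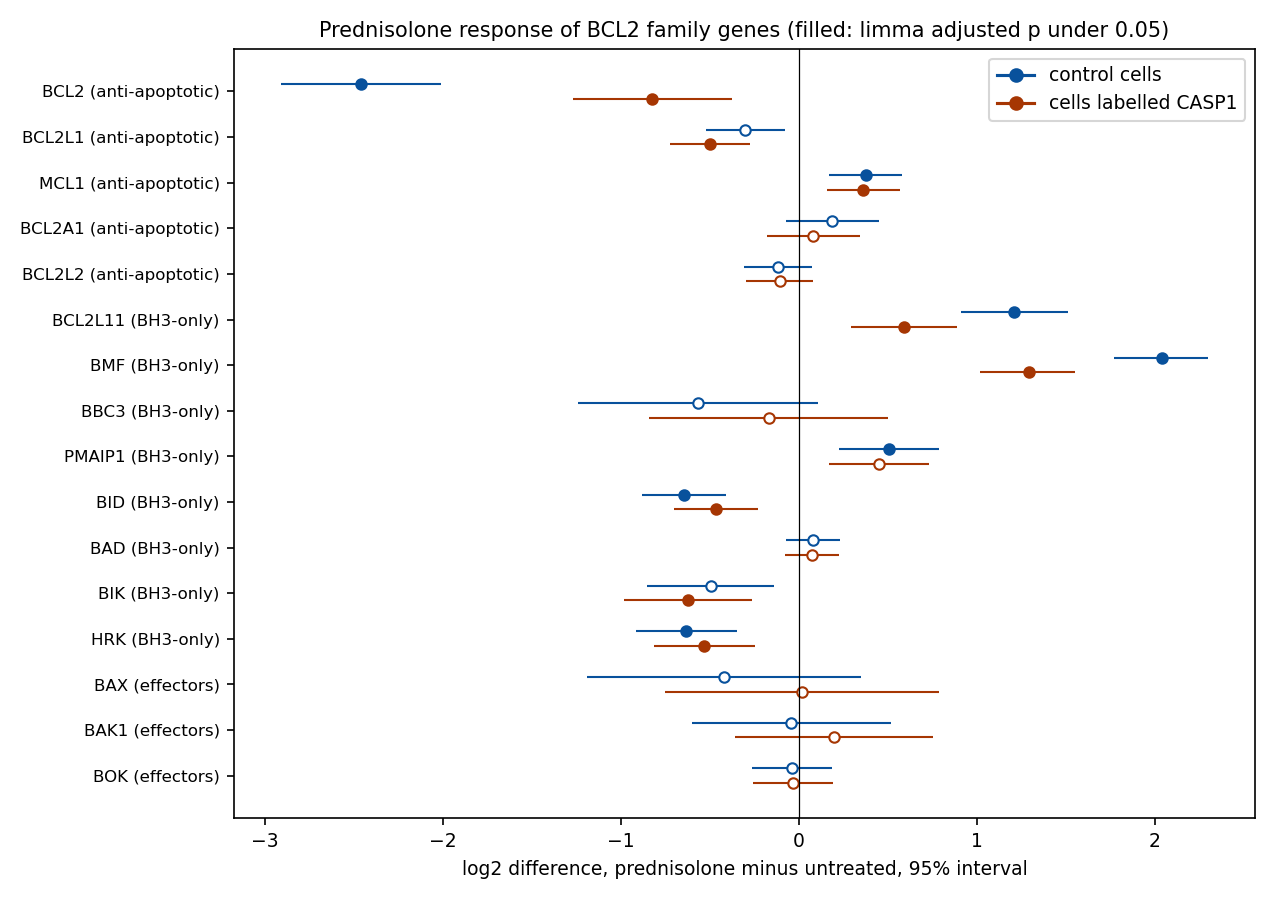
Log2 difference between prednisolone and untreated cells, with 95% intervals, for the 5 anti-apoptotic, 8 BH3-only and 3 effector genes in control cells (blue) and cells labelled CASP1 (red); filled points had limma adjusted p under 0.05. BCL2 lies farthest to the left in control cells (-2.46) and BMF farthest to the right (2.04), and both lie nearer 0 in cells labelled CASP1.

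Of 7 genes tied to MCL1 protein turnover, 2 were called in control cells, 1 higher and 1 lower (14.2% of all genes), and 0 by limma in cells labelled CASP1 (6.34% of all genes), where 1, USP13, had an unadjusted p under 0.05. FBXW7, part of a ubiquitin ligase that marks MCL1 for degradation, rose by 0.51 in control cells (adjusted p = 0.00096) and was at 0.19 in cells labelled CASP1 (adjusted p = 0.31). It was lower in treated cells labelled CASP1 than in treated control cells (-0.34, adjusted p = 0.021), lost on leaving out control replicate 2, 3 or 4 or CASP1-labelled replicate 2 (adjusted p from 0.053 to 0.072). Its interaction was -0.32 (adjusted p = 0.41), and -0.36 (adjusted p = 0.04) without the 4 arrays of replicate 1. USP13, a deubiquitinase, fell by 0.35 in control cells (adjusted p = 0.0061).

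Of 8 measured genes downstream of the mitochondrial gate, 2 fell in the control line and 1 in the other, where 8.43% and 3.35% of all genes fell. It was 2 in each without the 4 arrays of replicate 1 (21.9% and 11.9% of all genes called in either direction). CYCS was then at -0.30 (adjusted p = 0.017) in cells labelled CASP1, against -0.23 (adjusted p = 0.093) with all arrays. VDAC1, a channel of the outer mitochondrial membrane, fell by 0.60 (adjusted p = 0.00018) and 0.53 (adjusted p = 0.0014). CYCS, which encodes cytochrome c, fell by 0.39 in control cells (adjusted p = 0.0017) and was lower in untreated cells labelled CASP1 by 0.45 on the log2 scale (adjusted p = 0.00062). CYCS was also called lower in treated cells labelled CASP1 than in treated control cells. It kept that call without any 1 of the 8 arrays (-0.34 to -0.25, adjusted p up to 0.046). Between the treated lines 2 of the 8 genes were called lower, where 8.52% of all genes were. Of 9 other relatives of the family, none was called with prednisolone in either line, where 14.2% and 6.34% of all genes were called. BNIP2 was lower in treated cells labelled CASP1 than in treated control cells (-0.41, adjusted p = 0.014).

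Counts of these relatives moved with replicate 1. Without its 4 arrays 1 of the 9 rose in control cells, and 2 rose and 1 fell in cells labelled CASP1, where 21.9% and 11.9% of all genes were called. BNIP3L, a mitophagy receptor, then rose in both lines, by 0.425 (adjusted p = 0.00031) and 0.38 (adjusted p = 0.0018), where all arrays gave 0.58 and 0.50 (adjusted p = 0.27 and 0.44). BNIP3L was also lower in cells labelled CASP1 without prednisolone (-0.295, adjusted p = 0.0052) and with it (-0.34, adjusted p = 0.0019). All arrays gave -0.24 and -0.32 for these (adjusted p = 0.72 and 0.54). BCL2L14 rose in cells labelled CASP1 by 0.37 (adjusted p = 0.042, against 0.25 and 0.36 with all arrays). Between the untreated lines it was at -0.36 (adjusted p = 0.031, against -0.18 and 0.47). BNIP3, a relative of BNIP3L, fell in cells labelled CASP1 by 0.41 (adjusted p = 0.00074, against -0.37 and 0.80). BNIP3 was also lower in cells labelled CASP1 without prednisolone (-0.90, adjusted p = 5.7e-07) and with it (-1.13, adjusted p = 7.6e-08), where all arrays gave -0.735 and -1.0 (adjusted p = 0.45 and 0.22). Between the lines 1 of the 9 was higher and 3 were lower, both without and with prednisolone (21.4% and 22.4% of all genes called). BNIP3, BNIP3L and BCL2L14 were named after their values were seen.

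The genes whose signal ran most like that of each member were sought among 3329 genes with an SD of at least 0.3 over the 16 arrays. Of the members only BCL2 itself reached that SD (1.13). Pearson correlation was used as a description, since the 16 arrays share 4 groups. For BCL2 these were TTF1, a transcription terminator of RNA polymerase I (r = 0.981), ATIC, an enzyme of purine synthesis (r = 0.974), and IMMP2L, a peptidase of the inner mitochondrial membrane (r = 0.969). After group means were taken off, these 3 had r from 0.813 to 0.848. Replicate 1 of BCL2 lay above the other arrays in every group. In cells labelled CASP1 it read 7.53 untreated (others 6.70 to 6.92) and 6.99 treated (others 5.79 to 5.97). Whether the r within groups rest on replicate 1 was not tested. The most opposite were PRCP, a lysosomal peptidase (r = -0.978), TXNIP, an inhibitor of glucose uptake (r = -0.96), and YPEL5 (r = -0.955). For TXNIP the value within groups was -0.205, so its likeness lay in the group means.

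MCL1 ran most like WDR37 (r = 0.952), SMYD4 (r = 0.947) and HIP1R (r = 0.945). It ran most opposite to DDX21 (r = -0.96), WDR12 (r = -0.948) and BRIX1 (r = -0.944), which all serve ribosome assembly in the nucleolus and had r between -0.857 and -0.719 within groups. In untreated cells labelled CASP1, replicate 1 of MCL1 read 10.65 (others 10.33 to 10.38). Whether these r within groups rest on replicate 1 was not tested. BCL2L1 ran most like MEX3B (r = 0.921) and TNFAIP3, a brake on NF-kappaB (r = 0.90), with SPTY2D1 next (r = 0.899). BCL2L1 was most opposite to CD96 (r = -0.868), F2RL3 (r = -0.867) and MFSD12 (r = -0.866). BCL2L2 was most like IER3 (r = 0.929), KIT (r = 0.922) and PWWP3A (r = 0.919), and most opposite to ZNF326 (r = -0.888), GTF3A (r = -0.884) and CMPK2 (r = -0.873), with only -0.312 to -0.0674 within groups for the last 3. For BCL2A1, whose signal lay near the floor, the closest gene was CCDC92 (r = 0.877), then POPDC1 (r = 0.814) and RDH10 (r = 0.804), and the most opposite were SNAPC3 (r = -0.786), S100A10 (r = -0.772) and RGS16 (r = -0.754).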

How the data were processed

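The deposited table holds log2 signals per probe set, and the submitters' processing notes name RMA. Which software ran it, in which version, is not known here. RMA sets arrays to a common scale, so total RNA per cell was not measured. The table held 49395 probe sets and 16 columns, of which 0 belonged to no sample. GEO's platform annotation supplied names: 44988 probe sets name 1 gene, 1832 several and 2473 none, and 102 were controls.

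Genes were fitted with limma 3.58.1 under R 4.3.3, as 4 group means over all 16 arrays (12 residual and 5.46 prior degrees of freedom, two-sided moderated test, eBayes without trend). Benjamini-Hochberg adjustment ran over 18132 genes, or over 44988 probe sets where a probe set is named, and called under 0.05. Every adjusted p is limma's. Intervals of 95% use the moderated SE. With no word on separate cultures, a p-value reflects spread that may be technical, and the number of arrays limits precision. The fit was tested on simulated data, with 50 genes changed at each of several sizes in the treated control arrays. It called 16% of them at a log2 change of 0.3, 28% at 0.5, 94% at 1 and 96% at 2. Of the unchanged genes, 11 were called. Far fewer genes were changed there than were called in the data, so these shares need not hold for the data.

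The members and gene lists were chosen with earlier results of these data known. Named were the members, every BH3-only or effector gene called in any comparison, up to 2 called genes of each other list, and the 3 most like and 3 most opposite genes of each member; BAD, BAX, BAK1 and BOK, never called, fall outside that rule and are given for completeness. Replicate numbers are shared between groups. After group means were taken off, same-numbered arrays of the untreated lines correlated at r = 0.43, 0.15, 0.17 and 0.18 in replicates 1 to 4. Between treated and untreated arrays r was 0.51, 0.19, 0.26 and 0.076 in control cells. In cells labelled CASP1 it was 0.44, 0.26, 0.096 and 0.26. Between the treated lines it was 0.19, 0.09, -0.053 and -0.045. Pairing by number was thus partial and strongest for replicate 1, and the main fit did not use it.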

Additional observations from a re-analysis of the deposited data

Results flagged for a closer look

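BCL2 in treated cells labelled CASP1 had 1 array far from the others: replicate 1 read 6.99, while the nearest array read 5.97 and the lowest 5.79. Probe set 11721377_x_at showed the same array apart, at 6.77 against 5.90 and 5.75. On probe set 11721375_a_at of BCL2, untreated control replicate 1 was the lowest at 5.35, with the others between 5.58 and 5.63, and on 11721374_a_at untreated replicate 2 of the cells labelled CASP1 was the highest at 3.98.

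BCL2L1 had replicate 1 of the untreated cells labelled CASP1 apart at 7.77, with the others between 7.45 and 7.49, and probe set 11739957_a_at had untreated control replicate 1 apart at 3.50, with the others between 4.09 and 4.19. MCL1 probe set 11715482_a_at read 9.80 in replicate 1 of the untreated cells labelled CASP1, with the others between 9.28 and 9.29, and 11715486_x_at read 4.88 in untreated control replicate 4, with the next at 4.61. A wide gap of this kind was seen in 8 of 80 groups of 4 arrays, where chance gives about 1 in 20. Replicate 1 was the array apart in 6 of the 8, and probe sets of a gene are not independent of each other.

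The prednisolone response of BCL2 differed between the lines by 1.63, tested as the interaction. The difference was 1.63 on probe set 11721377_x_at and 1.34 on 11721375_a_at, where untreated cells labelled CASP1 averaged 4.27, below the array medians.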

How the results depend on the processing

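Of 455 values of the 5 genes under the alternatives, 416 kept their direction and side of the threshold or were not called either way, 34 lost the call, 5 gained it and 0 changed sign with a call. With the mean of all probe sets of a gene, the count of the 5 genes called was 1 for prednisolone in cells labelled CASP1 (3 in the report), 1 between the untreated lines (4) and 1 between the treated lines (2). With only the groups compared in the fit it was 1 for prednisolone in cells labelled CASP1 and 1 between the treated lines, and 688 of all genes were called in the former. Leaving out single arrays gave 2 to 3 of the 5 genes for prednisolone in control cells, 1 to 3 in cells labelled CASP1, 2 to 4 between the untreated lines and 1 to 3 between the treated lines. Over all genes it gave 2035 to 2556, 791 to 1292, 1985 to 2369 and 2244 to 2877 in these comparisons, and 96 to 268 in the interaction, where all arrays gave 161.

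With the replicate number as a block, 289 genes were called in the interaction, and no call of the 5 genes changed in any comparison. Leaving out the 4 arrays of replicate 1, chosen after seeing the data, gave 3969, 2161, 3876 and 727 genes for prednisolone in control cells, in cells labelled CASP1, the untreated line difference and the interaction, against 2568, 1150, 2552 and 161. A batch term for replicate 1, also chosen after seeing the data, gave 1793 genes for prednisolone in cells labelled CASP1 and 392 in the interaction. The causes of these shifts were not tested. BCL2A1 could not be tested without the dimmest 30% of genes, since it is among them.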
